A study of Homo sapiens with 4 samples.

Results

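The 34 genes of glycolysis and the hypoxia response were followed through the depletion of CBX3 in 143B cells, a human osteosarcoma line. They were given as a list of names, and all 34 were found among the 37450 features of the deposited count table. They comprised 17 enzymes of the chain from glucose to lactate, 3 transporters, 3 kinases that set the rate or the end point of the chain, 10 other genes known as targets of hypoxia-inducible factor (HIF), and HIF1A. Wild-type 143B cells were transfected by a lipid reagent with a non-targeting siRNA (siNC, 2 libraries) or with siRNA against CBX3 (siCBX3, 2 libraries), and RNA was taken at day 2. Both groups came from the same line in the same serum-containing medium, and no oxygen level was given in the labels.

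Glycolysis splits glucose to pyruvate in the cytosol, and lactate dehydrogenase turns pyruvate into lactate, which leaves the cell through monocarboxylate transporters. Tumour cells, osteosarcoma lines among them, often run this route at a high rate even with oxygen present. HIF is a pair of proteins, an α subunit that prolyl hydroxylases mark for destruction when oxygen is plentiful and a stable β subunit. When the α subunit persists, the pair binds DNA at sites built around ACGTG and raises many genes of glucose uptake, glycolysis, vessel growth and matrix modification. HP1γ, the product of CBX3, is a heterochromatin protein that recognises histone H3 methylated at lysine 9.

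Total counts per library lay between 36509298 and 40336907. CBX3 was read 20311 and 21384 times with the non-targeting siRNA against 2020 and 2163 times with the CBX3 siRNA, a log2 fold change of -3.19 (SE 0.08, edgeR adjusted p = 2.73e-20). Values below are in CPM after TMM scaling (reads of a gene relative to the scaled library total), a scaling that evens out library size and composition, and fold changes are siCBX3 against siNC. A gene rose or fell where its edgeR quasi-likelihood test, adjusted by Benjamini-Hochberg over all 20999 tested genes, gave p under 0.05. Among bone-lineage markers RUNX2, COL1A1, COL1A2 and SPARC were above 1 CPM in all 4 libraries, while SP7, ALPL, IBSP and BGLAP were below it. The summed bone-lineage markers were 312 to 385 CPM in siNC and 1718 to 1817 CPM in siCBX3, most of it SPARC (321 and 1732 CPM on average), and their part in the results was not tested. Of the 4 leukocyte markers none, and of the 4 endothelial markers 1, passed 1 CPM in every library. Of the 4 epithelial markers 2, EPCAM and KRT19, passed it. The epithelial markers summed to 17.9 to 18.0 CPM in siNC and 12.7 to 14.2 CPM in siCBX3. Most of this was EPCAM, which fell from 14.2 to 9.96 CPM on average. In RNA from whole cultures, fewer cells of a type and less RNA per cell cannot be told apart.

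Of the 33 members that passed the filter on low counts, 14 rose, 8 fell and 11 were not called. Over all tested genes 48.4% were called, 24.4% higher and 24.0% lower, and among those with a mean of at least 50 counts the share was 57.4%. The members' share was 66.7%. Their median log2 fold change was 0.04, against -0.01 over all tested genes. With library totals in place of TMM factors, which put the median of all tested genes at -0.09, 12 members rose and 11 fell. The enzymes of the chain moved in both directions, with 5 higher, 6 lower and 6 not called, and a median of -0.05. That split became 4 higher and 8 lower with library totals, and 2 higher and 7 lower on log2(RPKM + 1) values. More of the other HIF targets rose than fell, with 5 higher, 1 lower and 3 not called of 9 tested, and a median of 0.37. That median is the value of ANKRD37, a weakly expressed gene counted among the 5, whose call was lost in 13 of 15 alternative analyses. With library totals 4 of these rose and 2 fell. The 2 lists were set side by side as counts and medians, and the difference between them was not tested.

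**Figure D1:**
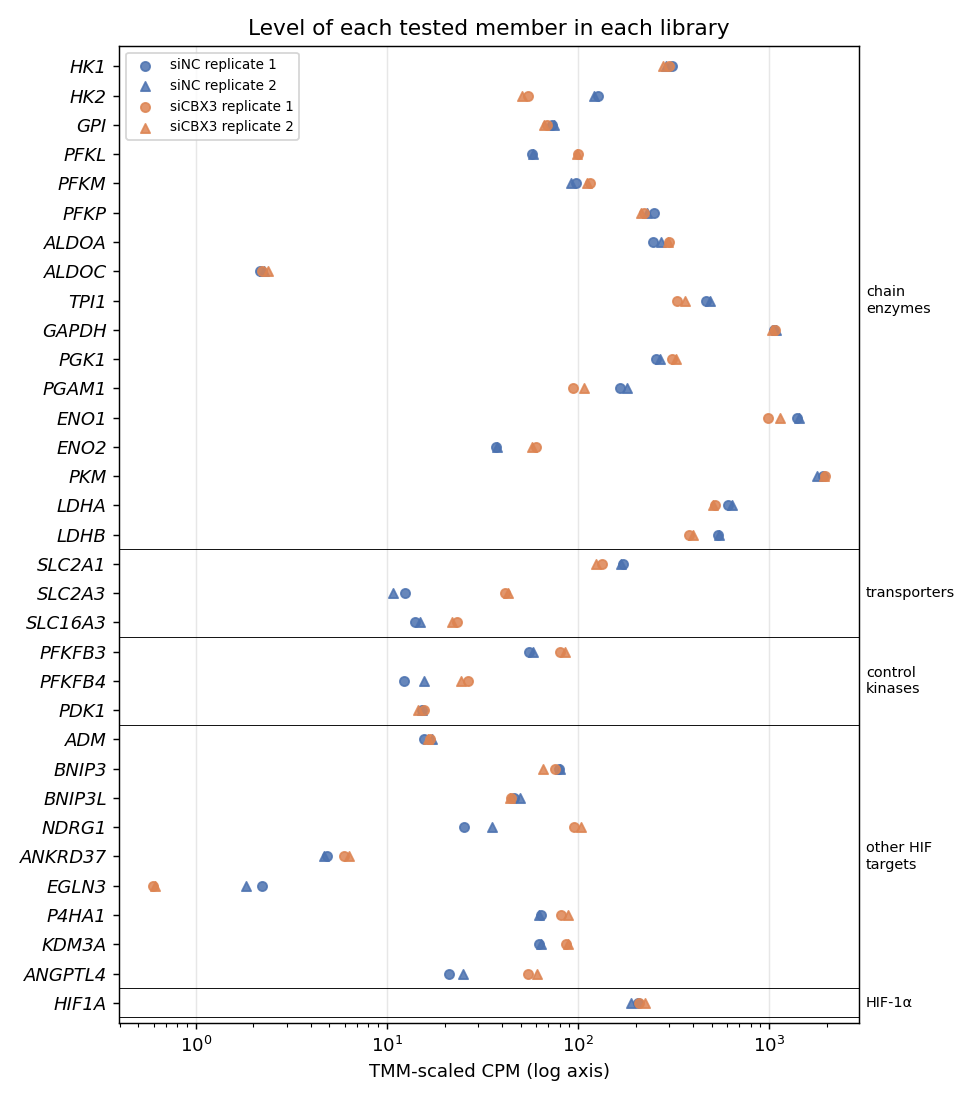
Level of the 33 tested members in each library, as TMM-scaled CPM on a log axis, with siNC in blue, siCBX3 in orange and the replicate shown by the marker shape. HK2, PGAM1 and EGLN3 sit lower in both siCBX3 libraries, SLC2A3, NDRG1 and ANGPTL4 sit higher, and HK1, ALDOC, GAPDH, PDK1 and ADM overlap between the groups.

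Hexokinase opens the chain by trapping glucose as glucose 6-phosphate, and HK2 is the inducible form that tumours often express. HK2 (chr2:74833981-74893359, plus strand, GRCh38) was at 127 and 122 CPM in siNC and at 54.6 and 50.8 CPM in siCBX3. Both siCBX3 libraries were far below both siNC libraries, a 2.36-fold lower mean (log2 fold change -1.24, SE 0.08, edgeR adjusted p = 2.64e-12). This was the lowest fold change among the 17 chain enzymes. HK1, the constitutive form, was at 309 and 289 CPM in siNC and 299.8 and 277 CPM in siCBX3, with overlapping groups. Its log2 fold change was -0.05, with a 95% interval from -0.20 to 0.10. GPI, which converts glucose 6-phosphate to fructose 6-phosphate, was at 73.0 and 74.6 CPM in siNC and 68.5 and 66.6 CPM in siCBX3. It was not called (edgeR adjusted p = 0.180), although with library totals it was, at a log2 fold change of -0.21.

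Phosphofructokinase commits sugar to glycolysis, and its 3 forms are named after liver, muscle and platelet. The liver form PFKL (chr21:44300051-44327376, plus strand) was at 57.7 and 57.9 CPM in siNC and at 100.0 and 98.8 CPM in siCBX3. The libraries of each group lay close together and the mean was 1.72-fold higher (log2 fold change 0.78, SE 0.08, edgeR adjusted p = 7.25e-09). The muscle form PFKM went from 97.2 and 92.0 CPM to 116 and 111 CPM, 1.20-fold higher (edgeR adjusted p = 0.00545). Its call was lost without siCBX3 replicate 1 (adjusted p = 0.0925), and on log2(RPKM + 1) its log2 fold change was 0.17 (limma adjusted p = 0.0646). PFKM has 8.62% of its exon bases under SENP1 on the opposite strand, which fell by 0.37 on the log2 scale. The platelet form PFKP was at 251 and 229 CPM in siNC and at 221 and 214 CPM in siCBX3. PFKP was not called (edgeR adjusted p = 0.119, 95% interval -0.29 to 0.01), but without siNC replicate 2 its adjusted p was 0.0142. With library totals, upper-quartile factors or RPKM values it was called too, at log2 fold changes of -0.19 to -0.22.

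Aldolase splits fructose bisphosphate into a pair of triose phosphates. ALDOA, its main form here, was at 247 and 272 CPM in siNC and at 300.0 and 297 CPM in siCBX3. The siNC libraries differed from each other by about as much as the higher of them differed from the siCBX3 libraries, and the mean was 1.15-fold higher (edgeR adjusted p = 0.0272). That call was lost without siNC replicate 1 (log2 fold change 0.13, adjusted p = 0.132), without siCBX3 replicate 1 (0.168) and without siCBX3 replicate 2 (0.129). With library totals its log2 fold change was 0.12 (adjusted p = 0.210). ALDOC, the brain form, lay between 2.18 and 2.37 CPM in all 4 libraries with overlapping groups. Triosephosphate isomerase makes the products of the split interconvertible. TPI1 was at 465 and 489 CPM in siNC and at 329 and 363 CPM in siCBX3, a 1.38-fold lower mean with no overlap (log2 fold change -0.46, SE 0.08, edgeR adjusted p = 1.58e-05).

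In the lower part of the chain, GAPDH carries out the oxidation step and is often used as a reference gene. GAPDH was at 1058 and 1083 CPM in siNC and 1080.2 and 1039 CPM in siCBX3, with a log2 fold change of -0.01 and a 95% interval from -0.16 to 0.14. GAPDH shares 14.2% of its exon bases with a feature on the opposite strand. PGK1, which makes the first ATP of the chain, was at 255 and 268 CPM in siNC and at 309 and 326 CPM in siCBX3. Both siCBX3 libraries were above both siNC libraries, by 1.21-fold in the mean (log2 fold change 0.28, edgeR adjusted p = 0.00256). Without siCBX3 replicate 2 the adjusted p for PGK1 was 0.0700, and on log2(RPKM + 1) values limma gave 0.0718.

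Phosphoglycerate mutase moves the phosphate group ahead of enolase. PGAM1 (chr10:97426160-97433441, plus strand) was at 167 and 180.3 CPM in siNC and at 94.3 and 108 CPM in siCBX3. All siCBX3 values were well under the siNC values, 1.72-fold lower in the mean (log2 fold change -0.78, SE 0.08, edgeR adjusted p = 1.57e-08). PGAM4, a near-identical copy whose reads may not be separable from those of PGAM1, was counted 98 and 104 times in siNC against 32 and 44 times in siCBX3. Enolase makes phosphoenolpyruvate. ENO1, the ubiquitous form, was at 1405 and 1437 CPM in siNC and at 985 and 1135 CPM in siCBX3, 1.34-fold lower (log2 fold change -0.42, SE 0.08, edgeR adjusted p = 7.96e-05). ENO2, the form known from neurons, went the other way, from 37.2 and 37.9 CPM to 60.5 and 57.3 CPM. Its groups were well apart, 1.57-fold higher in siCBX3 (log2 fold change 0.65, SE 0.08, edgeR adjusted p = 4.33e-07). The pseudogene ENO1P4, which can share reads with ENO1, was counted 909 and 1167 times in siNC against 418 and 504 times in siCBX3.

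PKM encodes the pyruvate kinase of most tissues and was at 1912 and 1784 CPM in siNC and 1966 and 1943 CPM in siCBX3. The siCBX3 libraries were both higher, but by less than the siNC libraries differed from each other (edgeR adjusted p = 0.389, 95% interval -0.07 to 0.23). The counts are per gene and do not separate its splice forms. Lactate dehydrogenase closes the chain. LDHA, the subunit known as a HIF target, was at 607 and 637 CPM in siNC and at 520.0 and 508 CPM in siCBX3, 1.21-fold lower (edgeR adjusted p = 0.00270). Without siCBX3 replicate 2 the adjusted p for LDHA was 0.0644. LDHB, the subunit typical of heart, was at 543 and 549 CPM in siNC and at 379 and 399 CPM in siCBX3. Its groups stood further apart than those of LDHA, 1.40-fold lower in siCBX3 (log2 fold change -0.49, SE 0.07, edgeR adjusted p = 4.76e-06).

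**Figure D2:**
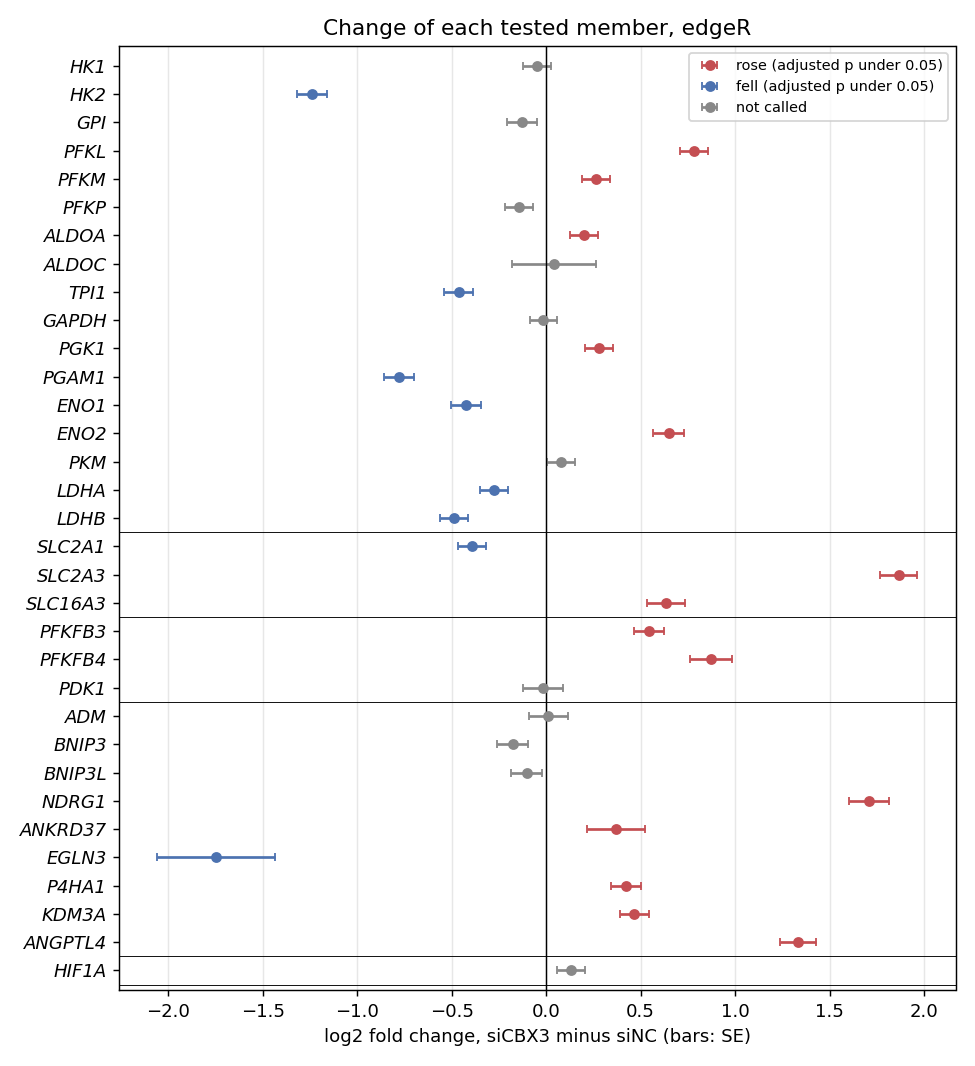
Log2 fold change of the 33 tested members, siCBX3 minus siNC, from the edgeR fit, with bars of 1 SE, in red where the gene rose, blue where it fell and grey where it was not called. The chain enzymes lie on both sides of 0, from HK2 at -1.24 to PFKL at 0.78, and among the other HIF targets EGLN3 at -1.75 and NDRG1 at 1.71 mark the ends.

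To compare steps, levels were expressed per exon length as TMM-scaled RPKM and summed over those isozymes of each step that are members. The summed exon length of a gene is longer than most of its transcripts, so these levels are approximate. Of the 11 steps, 6 were lower in both siCBX3 libraries than in both siNC libraries, 3 were higher and 2 overlapped. Separation of 2 against 2 libraries is a weak mark, and its share over all genes is not given here. GPI and PKM were among the separated steps, and neither gene was called (edgeR adjusted p = 0.180 and 0.389). Hexokinase was 69.7 ± 2.91 (SD, n = 2) in siNC and 56.2 ± 3.05 in siCBX3. Phosphofructokinase was 69.1 ± 3.71 and 71.8 ± 1.58, with overlapping groups, although PFKL and PFKM each rose. Enolase (ENO1 and ENO2) was 368 ± 5.88 in siNC and 282 ± 26.2 in siCBX3, and lactate dehydrogenase was 283 ± 4.82 and 213 ± 3.34. ENO3, an enolase outside the member list and so outside this sum, was at 37.5 ± 1.18 in siNC and 31.8 ± 0.554 in siCBX3. HKDC1, at 1.79 ± 0.366 and 3.13 ± 0.137, was outside the hexokinase sum. Phosphoglycerate kinase, at 48.3 ± 1.58 and 58.6 ± 2.12, and aldolase, at 43.0 ± 2.90 and 49.3 ± 0.255, were the steps before pyruvate kinase that were higher. GPI had the lowest level of any step in both groups, at 8.10 ± 0.124 and 7.42 ± 0.147. The 17 chain enzymes together held 0.769% and 0.794% of all counted reads in siNC and 0.665% and 0.685% in siCBX3. The groups did not overlap, and the exact two-sided permutation test gave 0.333, the smallest p that 2 against 2 libraries allows.

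**Figure D3:**
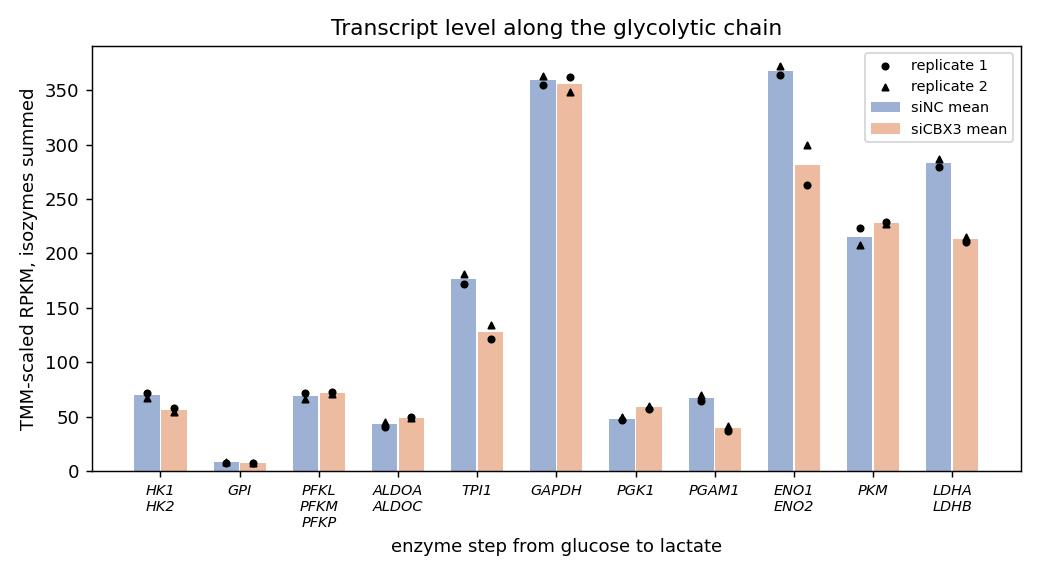
Transcript level of the 11 enzyme steps from glucose to lactate, as TMM-scaled RPKM summed over the member isozymes, with bars for group means and points for the libraries. Enolase, lactate dehydrogenase, triosephosphate isomerase and phosphoglycerate mutase are lower in siCBX3, and GAPDH and phosphofructokinase overlap.

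Within families, the makeup of the isozymes was measured inside each library, where scaling between libraries has no part. HK2 made up 29.2% and 29.7% of the summed HK1 and HK2 level per length in siNC and 15.4% and 15.5% in siCBX3. PFKL held 9.00% and 9.75% of the phosphofructokinase level in siNC and 15.4% and 15.7% in siCBX3, while PFKP went from 72.4% and 71.3% to 62.8% and 62.7%. The platelet form thus stayed the main one in all 4 libraries. ENO2 was 2.39% and 2.38% of the summed ENO1 and ENO2 level in siNC and 5.37% and 4.46% in siCBX3, a small share in both groups. ENO3 was not part of that sum. LDHB was 65.0% and 64.2% of the summed LDHA and LDHB level per length in siNC and 60.3% and 62.1% in siCBX3. By reads alone LDHA was the larger in every library, at 607 and 637 CPM against 543 and 549 CPM in siNC. The LDHB majority arises from division by summed exon length, 6210 bases for LDHA and 2983 for LDHB. Such lengths exceed most transcripts, so the shares are approximate. SLC2A3 was 5.49% and 4.88% of the summed SLC2A1 and SLC2A3 level in siNC and 19.8% and 21.8% in siCBX3. Reads counted to SLC2A3 pseudogenes, 76.2% of the gene's own count over the 4 libraries, were not part of that sum. The groups did not overlap for any of the 8 shares computed, PFKM and ALDOC included. How often shares within other gene families separate in this way is not given here. The shares of PFKL, PFKM and PFKP add up to the whole and so are not independent. ALDOC itself overlapped between the groups and was not called. Each exact two-sided permutation p was 0.333, the smallest this design can give, and no adjustment over the shares can lower it.

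**Figure D4:**
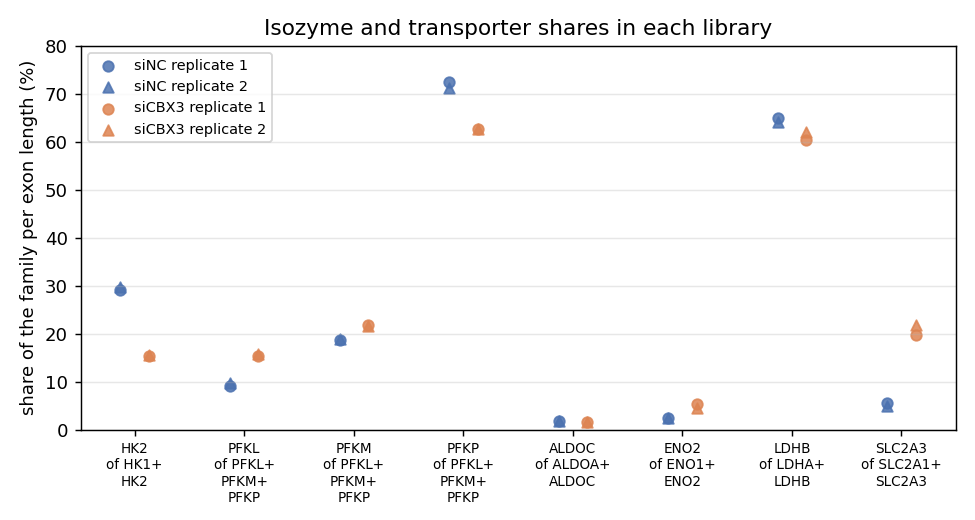
Share of a gene in the summed level of the members of its family, in percent of the level per exon length, for each of the 4 libraries, siNC in blue and siCBX3 in orange. HK2 falls from near 29% to near 15% and SLC2A3 goes from near 5% to near 20%, while ALDOC stays under 2%.

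The 3 transporters all changed, in different directions. SLC2A1 (GLUT1), the widespread glucose carrier, was at 171 and 168 CPM in siNC and at 134 and 124 CPM in siCBX3, 1.31-fold lower (log2 fold change -0.39, SE 0.07, edgeR adjusted p = 0.000109). SLC2A3 (GLUT3), a carrier with high affinity for glucose at chr12:7919230-7936275 on the minus strand, was at 12.4 and 10.8 CPM in siNC and at 41.3 and 43.2 CPM in siCBX3. The siCBX3 libraries were 3.64-fold higher and far from the siNC values (log2 fold change 1.87, SE 0.10, edgeR adjusted p = 9.14e-14). The pseudogene SLC2A3P1, which can share reads with SLC2A3, was counted 791 and 778 times in siNC against 728 and 744 times in siCBX3. It was not called (edgeR adjusted p = 0.827). SLC2A3 itself was counted 468 and 454 times in siNC and 1455 and 1637 times in siCBX3, so in siNC the pseudogene had more reads. Over the 4 libraries, reads of SLC2A3 pseudogenes came to 76.2% of those of the gene. How far such reads alter the fold change of SLC2A3 was not tested. SLC2A14, the coding near-copy of SLC2A3, was counted 2 and 4 times in siNC and 18 times in each siCBX3 library. SLC16A3 (MCT4), which exports lactate, went from 14.1 and 14.9 CPM to 23.2 and 21.8 CPM, 1.55-fold higher (log2 fold change 0.63, SE 0.10, edgeR adjusted p = 1.25e-05). It has 5.36% of its exon bases under CSNK1D on the opposite strand, which also rose, by 0.41 on the log2 scale. On log2(RPKM + 1) values the change of SLC16A3 was 0.37 (limma adjusted p = 0.0223).

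PFKFB3 and PFKFB4 make and break fructose 2,6-bisphosphate, an activator of phosphofructokinase, and both rose. PFKFB3 was at 55.6 and 58.3 CPM in siNC and at 80.6 and 85.5 CPM in siCBX3, 1.46-fold higher (log2 fold change 0.54, SE 0.08, edgeR adjusted p = 3.31e-06). PFKFB4 was at 12.2 and 15.6 CPM in siNC and at 26.7 and 24.5 CPM in siCBX3, 1.84-fold higher (log2 fold change 0.87, SE 0.11, edgeR adjusted p = 5.05e-07). PFKFB4 has 4.73% of its exon bases in common with UCN2 on the same strand, which rose by 1.45. PDK1, the kinase that shuts pyruvate dehydrogenase and a textbook HIF target, stayed between 14.6 and 15.7 CPM in all 4 libraries. Its groups overlapped, with a log2 fold change of -0.01 and a 95% interval from -0.23 to 0.20.

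Among the other HIF targets, NDRG1, a stress-responsive gene tied to growth arrest and differentiation, was at 25.4 and 35.3 CPM in siNC and at 95.3 and 103 CPM in siCBX3. The siNC libraries differed more from each other than for most members, yet both lay far below the siCBX3 libraries, a 3.27-fold difference (log2 fold change 1.71, SE 0.11, edgeR adjusted p = 1.85e-12). ANGPTL4, a secreted inhibitor of lipoprotein lipase at chr19:8363289-8374373 on the plus strand, went from 21.0 and 24.9 CPM to 54.8 and 61.1 CPM. This was 2.52-fold higher, with no overlap (log2 fold change 1.33, SE 0.09, edgeR adjusted p = 2.23e-11). P4HA1, a subunit of the prolyl hydroxylase that matures collagen, was at 64.0 and 62.7 CPM in siNC and at 81.4 and 88.5 CPM in siCBX3, 1.34-fold higher (edgeR adjusted p = 8.29e-05). KDM3A, a demethylase of histone H3 lysine 9, was at 62.7 and 64.0 CPM in siNC and at 86.8 and 88.4 CPM in siCBX3, 1.38-fold higher (edgeR adjusted p = 1.80e-05).

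ANKRD37 was low, at 4.86 and 4.65 CPM in siNC and 5.99 and 6.31 CPM in siCBX3, 1.29-fold higher with an edgeR adjusted p of 0.0491. It has 35.2% of its exon bases under UFSP2 on the opposite strand, which rose by 0.37 on the log2 scale, the same as ANKRD37. The call was lost when any 1 of the libraries was left out, with adjusted p from 0.0779 to 0.185, and in 13 of 15 alternative analyses in all. EGLN3, a HIF prolyl hydroxylase that is itself a known HIF target, fell against the direction of the other called genes of its list. EGLN3 was counted 84 and 77 times in siNC against 21 and 23 times in siCBX3, a 3.37-fold lower level (log2 fold change -1.75, SE 0.31, edgeR adjusted p = 5.34e-05). At such low levels the scale matters, and on log2(RPKM + 1) values the change of EGLN3 was -0.25 (limma adjusted p = 0.0108).

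The remaining targets were not called. ADM, a vasodilator peptide, was at 15.7 and 17.3 CPM in siNC and 16.8 and 16.4 CPM in siCBX3, with a 95% interval of its log2 fold change from -0.20 to 0.23. BNIP3, a mitophagy receptor, was at 79.5 and 80.1 CPM in siNC and at 75.5 and 65.7 CPM in siCBX3 (edgeR adjusted p = 0.0757). Its log2 fold change was -0.18, with a 95% interval from -0.35 to -0.01, and it was called lower in 5 of 15 alternative analyses. Without siCBX3 replicate 1 the log2 fold change of BNIP3 was -0.28. BNIP3L, its relative, was at 46.0 and 49.6 CPM in siNC and 44.8 and 44.2 CPM in siCBX3 (edgeR adjusted p = 0.321). CA9, a carbonic anhydrase often used as a hypoxia marker, was counted 0 and 7 times in siNC against 2 and 0 times in siCBX3 and was left out by the filter on low counts. HIF1A, the α subunit, was at 206 and 189 CPM in siNC and at 209.8 and 224 CPM in siCBX3. The siCBX3 libraries were both higher but HIF1A was not called (log2 fold change 0.13, edgeR adjusted p = 0.147, 95% interval -0.02 to 0.29). Without siNC replicate 1 its adjusted p was 0.0225. The amount of HIF-1α is set largely at the protein level, which was not measured here.

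Promoter sequences were set beside these changes because HIF binds around ACGTG. Windows of the 250 bases before annotated starts were taken from RefSeq (GRCh38.p14) for the 31 of 34 genes with an entry. ACGTG was searched on both strands, so that each CACGTG counts as 2 overlapping matches, and a gene with several starts was counted if any window held a match. Of the 31 genes, 19 held ACGTG (61.3%), against 21.7% of 27305 genes in the same table and 28.4% of 11624 tested genes with a window. Members had more windows per gene. Counted per window, ACGTG was in 37.3% of 59 member windows against 18.5% of all 35116. The members include genes listed as known HIF targets, and these shares do not depend on the siRNA. The motif was in 9 of 12 genes that rose, 3 of 8 that fell and 6 of 10 that were not called, with the untested CA9 making up the total. The 4 windows below show 2 genes that fell (HK2, LDHA) and 2 that rose (PGK1, ANGPTL4), 5′ to 3′ on the strand of the gene, with ACGTG on either strand in capitals. For genes with more than 1 start, the window with the most matches is shown. HK2 (chr2:74834920-74835169, plus strand) has 4 matches from 2 CACGTG words, and LDHA (chr11:18394313-18394562, plus strand) has 5. PGK1 (chrX:78103998-78104247, plus strand) has 2 matches and ANGPTL4 (chr19:8363905-8364154, plus strand) has 1.
HK2: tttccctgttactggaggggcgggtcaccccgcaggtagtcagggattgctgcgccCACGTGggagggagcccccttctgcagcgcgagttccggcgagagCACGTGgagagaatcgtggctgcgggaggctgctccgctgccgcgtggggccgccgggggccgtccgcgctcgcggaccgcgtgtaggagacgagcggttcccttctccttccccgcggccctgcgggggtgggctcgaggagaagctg
LDHA: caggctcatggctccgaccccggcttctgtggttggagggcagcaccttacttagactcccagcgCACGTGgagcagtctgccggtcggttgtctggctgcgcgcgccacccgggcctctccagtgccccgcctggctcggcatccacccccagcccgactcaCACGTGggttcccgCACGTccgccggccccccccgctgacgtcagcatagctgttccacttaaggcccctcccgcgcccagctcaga
PGK1: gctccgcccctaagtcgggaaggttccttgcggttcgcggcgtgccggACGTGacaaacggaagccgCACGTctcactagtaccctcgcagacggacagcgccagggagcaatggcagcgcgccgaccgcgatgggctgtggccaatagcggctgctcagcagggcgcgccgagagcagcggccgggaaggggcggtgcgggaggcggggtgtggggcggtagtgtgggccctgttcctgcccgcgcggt
ANGPTL4: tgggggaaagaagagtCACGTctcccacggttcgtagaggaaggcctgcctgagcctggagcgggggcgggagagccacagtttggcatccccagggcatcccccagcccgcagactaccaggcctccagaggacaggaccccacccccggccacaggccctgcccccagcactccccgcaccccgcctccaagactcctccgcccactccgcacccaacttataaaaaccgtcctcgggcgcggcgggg
Over the 31 genes, CACGTG was in 3 of 12 that rose, 2 of 8 that fell and 3 of 10 that were not called. A match is a description of the letters and not evidence of binding, and CACGTG is also the core word of other factors such as MYC.

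The wider HIF system was described from a list of 18 regulators and partners, of which 17 were tested. Of these 6 rose, 5 fell and 6 were not called, with a median of -0.01, where 48.4% of all tested genes were called. EPAS1, the α subunit of HIF-2, rose from 10.9 ± 0.684 CPM (SD, n = 2) to 21.6 ± 0.651 CPM (log2 fold change 0.99, edgeR adjusted p = 3.78e-08). CITED2, which competes with HIF for the coactivator p300, rose from 8.95 ± 0.499 to 19.7 ± 1.51 CPM (log2 fold change 1.14, edgeR adjusted p = 1.02e-08). HSP90AA1, a chaperone that holds HIF-1α, fell by 0.57 on the log2 scale, and TCEB1, a subunit of the complex in which VHL marks HIF, fell by 0.62. VHL itself rose by 0.48, while TCEB2 and RBX1 of the same list fell.

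Of 39 further HIF targets, 22 rose, 9 fell and 8 were not called, with a median of 0.35. Over all tested genes 24.4% rose and 24.0% fell. VEGFA, the vascular growth factor, was at 139 and 156 CPM in siNC and at 756 and 747 CPM in siCBX3 (log2 fold change 2.35, SE 0.08, edgeR adjusted p = 1.16e-17). STC1, a secreted glycoprotein, went from 36.4 ± 1.63 to 173 ± 4.07 CPM (log2 fold change 2.25, edgeR adjusted p = 2.93e-17). DDIT4, an inhibitor of mTORC1 signalling, went from 41.3 ± 11.5 to 187 ± 16.4 CPM (log2 fold change 2.18, edgeR adjusted p = 1.10e-13). GYS1, the muscle glycogen synthase, went from 16.8 ± 1.14 to 45.1 ± 0.165 CPM (log2 fold change 1.42, edgeR adjusted p = 3.93e-12). Among those that fell, STC2, a relative of STC1 picked after its values were seen, went from 160.0 ± 8.43 to 75.3 ± 1.67 CPM (log2 fold change -1.09, edgeR adjusted p = 1.89e-11). Many of these genes are also known to answer to other stress and growth signals.

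**Figure D5:**
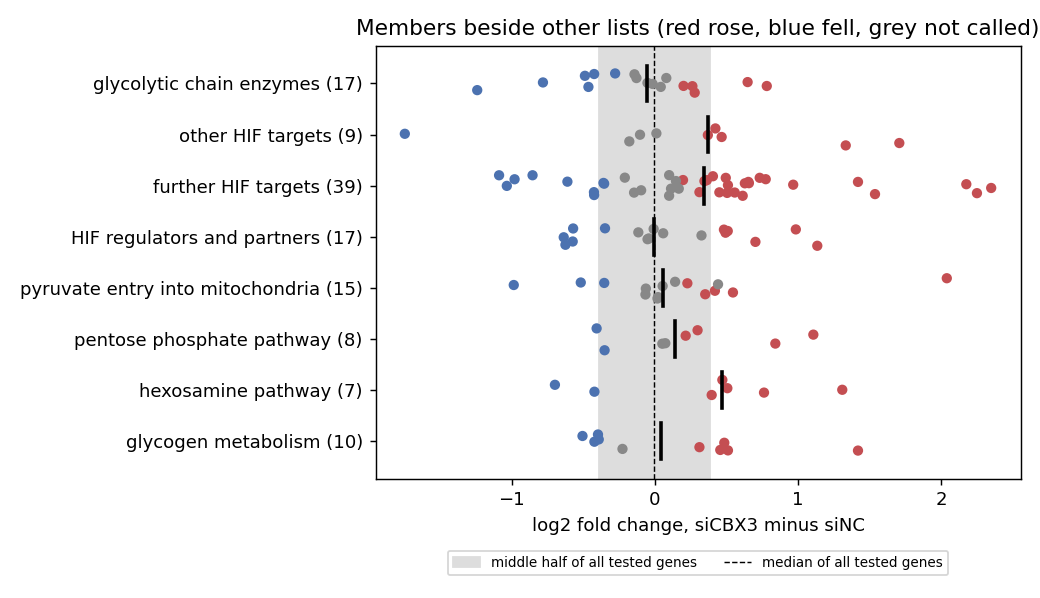
Log2 fold change, siCBX3 minus siNC, of the tested genes of 8 lists, with the number tested in brackets, a black bar at each list's median and a grey band over the middle part (the quartiles, -0.39 to 0.38) of all tested genes. The chain enzymes centre at -0.05, and the other and further HIF targets at 0.37 and 0.35.

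Related genes were counted from 3 further lists, to be read beside the 24.4% of all tested genes that rose and the 24.0% that fell. Of 21 paralogues and minor isozymes 11 were tested, of which 3 rose, 5 fell and 3 were not called. HKDC1, a hexokinase-like gene, rose from 7.63 ± 1.56 to 13.3 ± 0.586 CPM (log2 fold change 0.80, edgeR adjusted p = 2.62e-05). BPGM, which diverts a glycolytic intermediate in red cells, rose from 6.62 ± 0.327 to 11.0 ± 0.948 CPM (log2 fold change 0.73, edgeR adjusted p = 6.34e-05). Of 8 tested other glucose carriers 3 rose and 2 fell, led by SLC2A6, which rose from 4.62 ± 0.453 to 13.3 ± 1.12 CPM (log2 fold change 1.53, edgeR adjusted p = 1.73e-09). Of 5 monocarboxylate transport genes 2 fell and none rose. SLC16A1 (MCT1), which carries lactate in both directions, was at 428 and 360 CPM in siNC and at 196 and 191 CPM in siCBX3 (log2 fold change -1.03, SE 0.08, edgeR adjusted p = 1.71e-10). It thus fell where the lactate exporter SLC16A3 rose. Per exon length SLC16A1 was at 74.2 ± 9.06 TMM-scaled RPKM in siNC and 36.4 ± 0.718 in siCBX3, and SLC16A3 was at 1.61 ± 0.0603 in siNC, so SLC16A1 stayed the more abundant of the pair.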

How the data were processed

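Per the labels' protocols, total RNA was made into stranded mRNA libraries. The submitters' processing notes name GRCh38, Subread 1.5.1 with featureCounts, STAR 2.5.3a and Trimmomatic 0.36. The annotation release, strand setting and any molecular identifiers are not given in the sources used here. Raw counts and RPKM of each gene and library were deposited by the authors. The RPKM values equal the counts scaled by exon length and library total to within 3.79e-07.

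Counts were tested in R 4.3.3 with edgeR 4.0.16 (filterByExpr with minimum count 10 and minimum total 15, TMM, quasi-likelihood, group as the only term, 2 residual and 22.0 prior degrees of freedom). SE was obtained by dividing the log2 fold change by the square root of F. Levels are mean ± SD over 2 libraries. Alternatives used DESeq2 1.42.0, limma 3.58.1 with pseudocounts of 1 and 0.1 on RPKM, other scalings and filters, a replicate block, and each library left out. All 34 genes were named, plus CBX3, the markers and genes that share exon bases or reads with them. From each context list up to 4 genes were named in order of adjusted p, with STC2, ENO3, VHL, TCEB2 and RBX1 as exceptions. Scripts were tested on simulated data. The members and lists were chosen with earlier results of these data known.

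Log2 CPM correlated at 0.991 within groups and 0.957 to 0.961 across them. The labels do not say that replicates were separate cultures, and the spread behind the p-values is that between these libraries and may be technical. Intervals cover counting error and this spread, since reads counted without molecular identifiers need not be separate molecules. The siNC columns were matched to replicate numbers by title. Counts may not separate overlapping genes: 19 of the 34 share exon bases with another feature, 4 of them (ALDOC, GAPDH, CA9, ANKRD37) over at least 10% of their length. Of values from 1 to 20 counts, 75.0% were even, against 51.1% of values of 1001 or more.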

Additional observations from a re-analysis of the deposited data

How the results depend on the processing

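Of the 22 called members, 17 kept call and direction in all 15 alternatives, 5 lost the call in at least 1 (PFKM, ALDOA, PGK1, LDHA, ANKRD37), and 4 that were not called became so in at least 1 (GPI, PFKP, BNIP3, HIF1A). No called member changed direction. The median log2 fold change of the chain enzymes moved from -0.05 to -0.13 with library totals (-0.129). It did so too with limma on log2(RPKM + 1) (-0.127) and on log2(RPKM + 0.1) (-0.130). These settings all scale by library total and use no TMM factors. In the same order, the median of all tested genes moved from -0.01 to -0.09, -0.04 and -0.08. The part of the scaling in the shift was not tested further. Leaving out each library in turn gave 8341 to 9654 changed genes against 10173, 18 to 22 changed members, 8 to 12 chain enzymes and 5 to 6 other HIF targets. The medians were then -0.11 to -0.01 for the chain enzymes and 0.33 to 0.41 for the other HIF targets. The library left alone in its group is assumed to vary like the others. The share of reads in the chain enzymes differed by -0.119 to -0.0938 percentage points.

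With the replicate number as a block, 10630 genes and 23 members were called, BNIP3 being the addition (adjusted p = 0.0418). The deviations of same-numbered libraries correlated at only 0.0287, so the numbers are not shown to pair the libraries. DESeq2 called 8276 genes and 21 members. With counts divided by 2 and rounded, an alternative chosen after seeing the data, 10038 genes and 21 members were called. ALDOA lost its call in 7 and ANKRD37 in 13 alternatives. Without the filter on low counts CA9, at 0 to 7 counts, was tested too, and 21 of 34 members were called.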

Other observations

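Genes that take sugar or pyruvate away from the chain to lactate were described from further lists. Of 15 genes of pyruvate entry into mitochondria, 5 rose, 3 fell and 7 were not called, with a median log2 fold change of 0.06. The share called over all tested genes was 48.4%. PDP1, the phosphatase that reactivates pyruvate dehydrogenase, was at 12.2 and 14.0 CPM in siNC and at 52.9 and 54.8 CPM in siCBX3 (log2 fold change 2.04, SE 0.10, edgeR adjusted p = 8.40e-15). MPC1, a subunit of the mitochondrial pyruvate carrier, fell from 21.5 ± 2.12 CPM (SD, n = 2) to 10.8 ± 1.92 CPM (log2 fold change -0.98, edgeR adjusted p = 2.61e-07). PC, which carboxylates pyruvate, fell from 18.2 ± 0.586 to 12.7 ± 1.05 CPM (edgeR adjusted p = 0.000325). MPC2, the partner of MPC1, rose from 8.40 ± 0.737 to 12.3 ± 0.785 CPM (edgeR adjusted p = 0.000777).

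All 7 genes of the hexosamine pathway, which makes UDP-GlcNAc for glycosylation, were called, 5 higher and 2 lower. This and the counts below are from short lists, not tested as sets. Beside them, 48.4% of all tested genes were called, and 57.4% of those with a mean of at least 50 counts. GFPT2, a form of its first enzyme, rose from 97.7 ± 6.21 to 242 ± 10.9 CPM (log2 fold change 1.31, edgeR adjusted p = 6.70e-13), and GFPT1, the other form, rose by 0.76 on the log2 scale. UAP1, the last enzyme, fell by 0.70. In the pentose phosphate pathway 4 of 8 rose and 2 fell, with TKT going from 121 ± 3.10 to 217 ± 2.58 CPM (edgeR adjusted p = 8.94e-10). Of 10 tested glycogen genes 5 rose and 4 fell, GYS1 with the smallest adjusted p, and 3 of the list, GYS1 included, are also among the further HIF targets. Of 5 glucose-sensing genes 4 fell and none rose. ARRDC4, an arrestin-domain relative of TXNIP, went from 2.13 ± 0.311 to 0.817 ± 0.113 CPM (log2 fold change -1.38, edgeR adjusted p = 0.000357). The sensor subunits MLXIP and MLXIPL had log2 fold changes of -0.28 and -1.67, with edgeR adjusted p of 0.00726 and 0.00908. TXNIP, a brake on glucose uptake, went from 5.09 ± 0.0112 to 3.70 ± 0.383 CPM (log2 fold change -0.46, edgeR adjusted p = 0.0282).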
